A study of Rattus norvegicus with 9 samples.

Results

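The genes described here encode the proteins that repair broken and mispaired DNA, chiefly by homologous recombination and mismatch repair, together with the damage checkpoint kinases and the Fanconi anaemia proteins that work with them. They are 38 genes, taken by symbol, among the 34267 genes of the deposited table. Expression was measured by RNA-seq of polyadenylated RNA from wild-type primary rat cartilage progenitor cells taken from condylar cartilage, in 9 libraries. The P3 group, the control, held 3 libraries of cells at passage 3. The P9 group held 3 libraries of cells carried in culture to passage 9, the replicative senescence model of the series. The FFSS group held 3 libraries of cells also at passage 3 but put under flow fluid shear stress, in which liquid is driven across the culture, and serves as the model of mechanically induced degeneration. The strength and duration of the flow, and any tie of the replicates to animals or dishes, were not given in the sources used here, so p-values measure only the spread between these libraries. The question of the series was what the models have in common.

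Homologous recombination repairs a double-strand break by copying an intact sister DNA molecule, and so works mainly in cells that are copying or have copied their genome. The break is sensed and resected, the exposed single strand is coated by replication protein A, BRCA proteins prepare it for pairing with the intact copy, and helicases and nucleases resolve the joined molecules. Non-homologous end joining, which starts when the Ku heterodimer binds a broken end, needs no such template and works through the whole cell cycle. Mismatch repair proteins find bases mispaired during replication, and the Fanconi anaemia proteins repair crosslinks that block a replication fork.

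After shear stress 12 of the 35 tested repair genes fell and 1 rose, where 10.4% of all tested genes fell and 11.4% rose. At passage 9 limma called 0 lower and 1 higher, where 4.44% of all tested genes fell and 5.39% rose (0 lower at an unadjusted p under 0.05, 0 with voom). These passage 9 counts are not told apart from the shares of all tested genes. The repair genes that fell after shear stress were Clspn and Chek1 of the checkpoint, Nbn, Brca1 and Bard1, the strand exchange partners Rad51ap1, Rad54l and Xrcc2, the helicase Blm, Fancd2 and Fanci, and the mismatch recognition subunit Msh6. Chek2 rose after shear stress and Xrcc5, a Ku subunit, rose at passage 9. Levels are FPKM, that is fragments relative to the length of the gene and a size of the library. In the deposited values that size was not the fragment total. It followed the median ratio of a library's genes to their geometric mean over the libraries. A call is a Benjamini-Hochberg adjusted p under 0.05 over 13059 genes in limma's two-sided test on log2(FPKM + 1), among genes that reached 1 FPKM in 3 or more libraries. Fold changes are log2 ratios of FPKM + 1 with 95% intervals, and they understate the change of genes near 1 FPKM. Most of these genes were weakly expressed, with 6 above a mean of 10 FPKM, 28 between 1 and 10 and 4 below 1. Palb2, Brca2 and Rad54b stayed under the filter and were not tested.

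**Figure D1:**
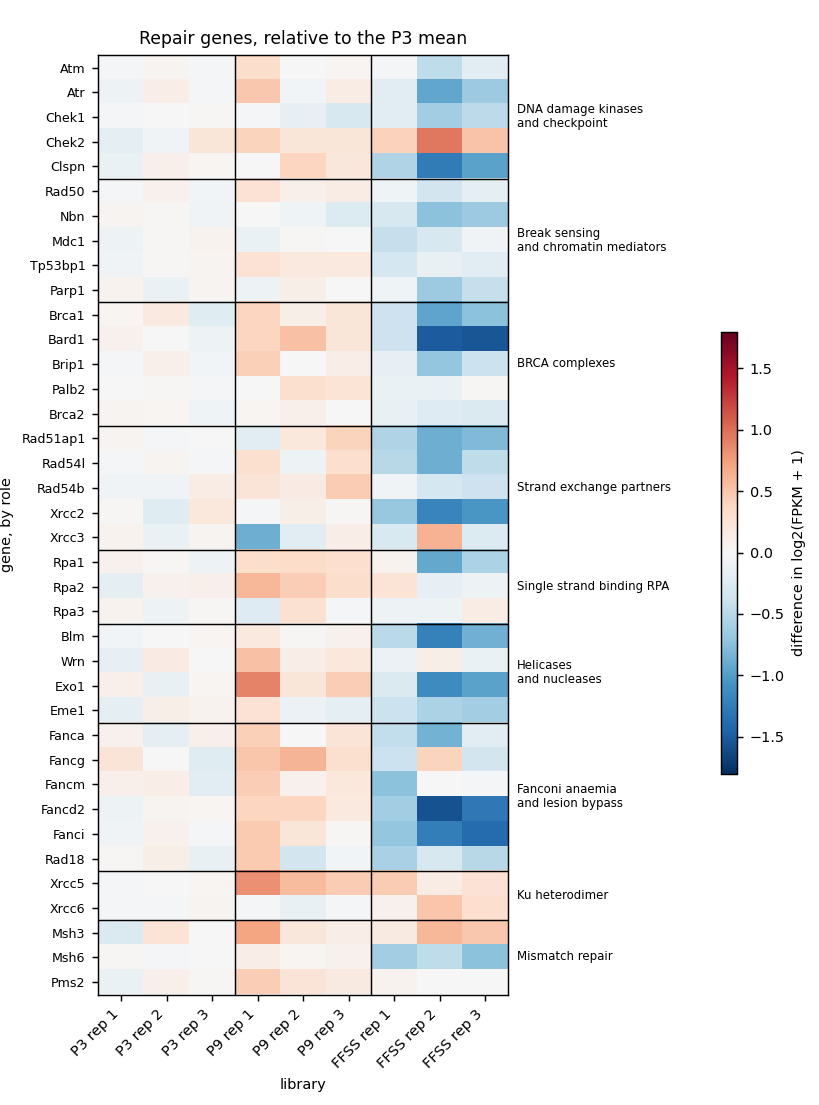
Difference of log2(FPKM + 1) from the P3 mean (colour) for the 38 repair genes (rows, grouped by role) in each of the 9 libraries (columns). Most rows are blue in the FFSS libraries, most deeply in replicates 2 and 3, while the Ku genes, Chek2 and Msh3 are red there.

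Printed here are the promoters of the 6 genes with the smallest adjusted p among the 9 that fell after shear stress and have an entry in the promoter table, so that the words searched for can be seen in genes that fell. Each is the RefSeq sequence of 250 bases before to 50 bases after the annotated start on the GRCr8 rat build, which is not the build of the expression table, written 5′ to 3′ along the gene. Capitals mark matches on either strand to an E2F word (TTTGGCGC, TTTGCCGC, TTTCGCGC or TTTCCCGC), to a cell cycle homology region word, CHR (TTTGAA or TTCGAA), or to CCAAT, which reads ATTGG on the other strand. E2F factors and the CHR are known for control of S phase and mitotic genes.
Fanci: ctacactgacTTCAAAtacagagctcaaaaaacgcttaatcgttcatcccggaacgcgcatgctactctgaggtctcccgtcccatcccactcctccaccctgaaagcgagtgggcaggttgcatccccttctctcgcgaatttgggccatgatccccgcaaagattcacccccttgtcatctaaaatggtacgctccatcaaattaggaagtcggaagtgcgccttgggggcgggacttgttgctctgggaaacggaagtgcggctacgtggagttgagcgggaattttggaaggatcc
Msh6: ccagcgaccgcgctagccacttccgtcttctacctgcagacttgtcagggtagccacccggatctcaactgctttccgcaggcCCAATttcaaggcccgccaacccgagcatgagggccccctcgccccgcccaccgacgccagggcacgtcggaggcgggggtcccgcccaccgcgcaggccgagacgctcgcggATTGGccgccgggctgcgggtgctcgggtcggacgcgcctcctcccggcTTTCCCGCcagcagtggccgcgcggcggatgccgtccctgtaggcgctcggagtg
Fancd2: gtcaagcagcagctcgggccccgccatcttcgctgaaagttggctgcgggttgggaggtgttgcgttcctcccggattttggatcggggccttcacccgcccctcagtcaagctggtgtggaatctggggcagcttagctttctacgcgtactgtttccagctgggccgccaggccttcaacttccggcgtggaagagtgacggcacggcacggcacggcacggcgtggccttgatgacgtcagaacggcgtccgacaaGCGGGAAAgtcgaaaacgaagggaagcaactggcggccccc
Clspn: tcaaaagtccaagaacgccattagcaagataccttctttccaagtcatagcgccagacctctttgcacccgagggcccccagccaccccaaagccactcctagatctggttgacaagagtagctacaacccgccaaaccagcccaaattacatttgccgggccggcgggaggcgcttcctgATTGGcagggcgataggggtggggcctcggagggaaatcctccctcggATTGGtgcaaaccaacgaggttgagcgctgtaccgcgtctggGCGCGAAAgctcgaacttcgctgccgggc
Rad51ap1: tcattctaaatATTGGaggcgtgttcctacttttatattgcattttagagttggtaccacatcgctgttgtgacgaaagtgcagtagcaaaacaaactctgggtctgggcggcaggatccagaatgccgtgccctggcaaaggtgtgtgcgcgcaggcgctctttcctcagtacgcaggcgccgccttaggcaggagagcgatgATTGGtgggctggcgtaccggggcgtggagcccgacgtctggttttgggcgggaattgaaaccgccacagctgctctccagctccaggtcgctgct
Bard1: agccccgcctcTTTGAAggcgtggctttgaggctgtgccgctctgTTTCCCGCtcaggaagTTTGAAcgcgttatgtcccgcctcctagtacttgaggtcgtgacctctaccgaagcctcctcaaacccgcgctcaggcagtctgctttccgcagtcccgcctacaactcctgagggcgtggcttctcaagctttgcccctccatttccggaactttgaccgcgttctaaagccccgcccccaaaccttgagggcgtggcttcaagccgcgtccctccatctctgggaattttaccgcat
These windows lie at chr1:142736403-142736702 (Fanci, plus strand), chr6:12333456-12333755 (Msh6, minus strand), chr4:148234458-148234757 (Fancd2, plus strand), chr5:144134387-144134686 (Clspn, plus strand), chr4:161458510-161458809 (Rad51ap1, minus strand) and chr9:80143706-80144005 (Bard1, minus strand).

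An E2F word stood close to the annotated start in Msh6, Fancd2 and Clspn. Counting the start as position 0, the first base of the word was at -5 in Msh6, at 9 in Fancd2 and at 21 in Clspn. In Bard1 the word was at -205, between 2 CHR words at -239 and -189, and Chek1 held one at -28. Over the 30 members matched in the promoter table by symbol, an E2F word was present in 5 of the 9 that fell after shear stress and in 2 of the 21 others (Atm and Rpa2). The share over all 33469 promoters of the table was 2.14%. Members were counted by their first entry only, while this share covers every entry, whether or not its gene was tested here. A CHR word was present in 2 of the 9 and 2 of the 21, against 19.7% of all promoters, and CCAAT in 5 of the 9 and 10 of the 21, against 37.5%. These matches describe the letters of the windows and were not tested. Blm, Chek2, Mdc1, Nbn, Rad54b, Rpa3, Wrn and Xrcc2 had no entry in that table.

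Sequencing depth was even, at 13264930 to 15323790 fragments assigned to genes per library. FFSS replicate 1 stood apart from the other libraries of its group: over the tested genes its Pearson correlation was 0.936 to 0.945 with the P3 libraries, and 0.915 and 0.947 with FFSS replicates 2 and 3, which correlated at 0.969 with each other. The mitochondrial share of fragments was 2.12% to 2.32% in P3 and 2.31% to 2.56% in P9, but 2.96% to 3.75% in FFSS. Of the markers of the labelled cell type, Col2a1, the cartilage collagen, was at or below 1.06 FPKM in every library, whereas Acan, the cartilage proteoglycan, stood at 122 to 135 FPKM in P3 and 499 to 609 in P9, but 29.3 to 48.2 in the FFSS libraries. Of 9 tested identity markers 4 rose after shear stress, Thy1, Eng, Pdgfra and Sox9, and 2 fell, Acan and Col1a1, while without any one P3 library or FFSS replicate 3 only 2 rose. Sox9, the chondrocyte lineage factor, ranged from 4.06 to 4.79 FPKM in P3 and from 9.81 to 15.3 in FFSS, and Col1a1, the fibrillar collagen of fibrous tissue, had means of 9777 FPKM in P3, 4805 in P9 and 4415 in FFSS. The summed FPKM of 8 leukocyte markers was 9.60 to 11.1 in P3 and 5.14 to 5.66 in P9, but 42.3 to 105.6 in FFSS, mostly from Cd14. Ptprc, the defining leukocyte marker, was at or below 0.0400 and Cd3e at 0 in every library. The macrophage genes Csf1r and Lyz2 were at or below 0.305 FPKM in P3 and in FFSS replicate 1, but Csf1r stood at 3.17 and 2.08 and Lyz2 at 5.36 and 2.94 in FFSS replicates 2 and 3, and Cd68 had means of 0.683 in P3 and 2.29 in FFSS. Of 4 glial markers the sum was 15.2 to 28.8 in P3 and 18.1 to 26.5 in P9, but 64.6 to 89.9 in FFSS, mostly S100b, with Sox10 at or below 0.0444. The skeletal muscle markers summed to 2.70 to 16.3 FPKM in P3 and 35.6 to 43.2 in P9, but 0.540 to 1.91 in FFSS, mostly Acta1, which was called higher at passage 9 and lower after shear stress, while Myod1, Myog and Ckm were at or below 0.604. The part of these differences in the results was not tested.

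Genes of cell division were lowest in the FFSS libraries. Of the repair genes 12 fell there, and 31 of the 38 had a lower mean in FFSS than in P3. The means of Chek2, Xrcc5, Xrcc6, Msh3, Xrcc3, Rpa2 and Pms2 were higher in FFSS than in P3. The summed FPKM of 28 mitotic genes was 432.5 to 504.0 in P3 and 554.2 to 566.5 in P9, but 206.7, 45.4 and 102.5 in FFSS replicates 1, 2 and 3. Mki67, which marks cycling cells, measured 13.2 ± 0.698 FPKM in P3, 12.7 ± 0.440 in P9 and 3.05 ± 2.56 in FFSS (SD, n = 3). Mcm2, a subunit of the replicative helicase, measured 18.9 ± 0.397, 19.3 ± 1.42 and 10.4 ± 6.29 FPKM (SD, n = 3). After shear stress 10.4% of all tested genes fell. Every one of the 28 mitotic genes did so, as did 12 of 40 tested replication and S phase genes (30%). With voom these counts were 28 and 16, and without FFSS replicate 1 they were 28 and 31. Leaving out a P3 library gave 22 to 24 mitotic and 3 or 4 replication genes, and leaving out FFSS replicate 3 gave 23 and 3. Leaving out P9 replicate 2 or 3 gave 8 replication genes. At passage 9 limma called 0 mitotic genes in either direction (0 at an unadjusted p under 0.05, 0 with voom). It called 1 replication gene, Pola2, higher. Of all tested genes 5.39% rose and 4.44% fell at passage 9. With 28 and 40 genes these counts are not told apart from those shares. Dropping P9 replicate 2 took the replication count to 0. The same held for P9 replicate 1, P3 replicate 3 and P3 replicate 1, each dropped alone. Without FFSS replicate 2 the replication count was 3. Dropping FFSS replicate 1 gave 3 replication genes and 1 mitotic gene higher. What part the differences in cell division genes had in the repair gene results was not tested. In bulk RNA fewer cells of a type and less RNA per cell cannot be told apart.

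**Figure D2:**
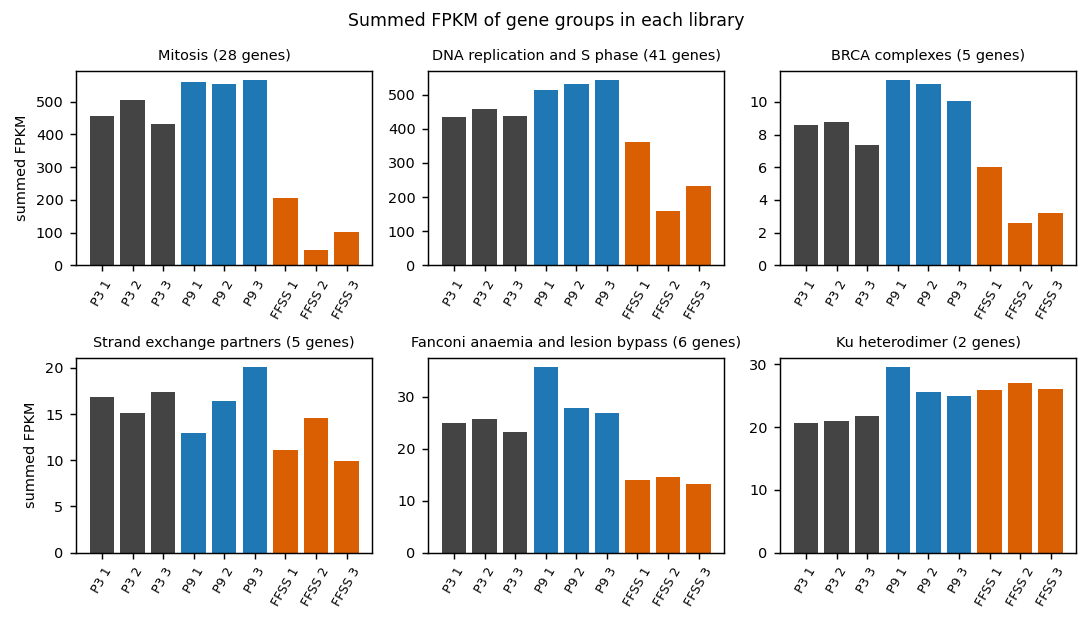
Summed FPKM (bars) of 6 gene groups in each library. The mitotic sum is lowest in FFSS replicate 2 (45.4) and the replication, BRCA and mitotic sums are lowest in the FFSS libraries, while the Ku sum is higher in FFSS and P9 than in P3.

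Against P3, shear stress lowered 12 of the 35 tested repair genes and raised 1, next to 10.4% lower and 11.4% higher among all genes tested. The median log2 fold change of the 35 was -0.43, against -0.01 for all tested genes, and 28 of the 35 were negative. Every FFSS library lay below every P3 library for 21 of the 35, where 22.3% of all tested genes did so, and above for 3 (Chek2, Xrcc5 and Xrcc6), where 20.1% did. Of the 13 calls, Xrcc2, Fancd2, Fanci and Msh6 held in all 16 settings fixed with the design. The count of lower genes was 4 without any one of the P3 libraries, 6 without FFSS replicate 2, 4 without FFSS replicate 3 and 17 without FFSS replicate 1. Limma voom, which weights the fragment counts, called 15 lower and 1 higher. The 10.4% and 11.4% of all tested genes come from limma on log2(FPKM + 1) with all 9 libraries. They are no yardstick for the counts under other settings.

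**Figure D3:**
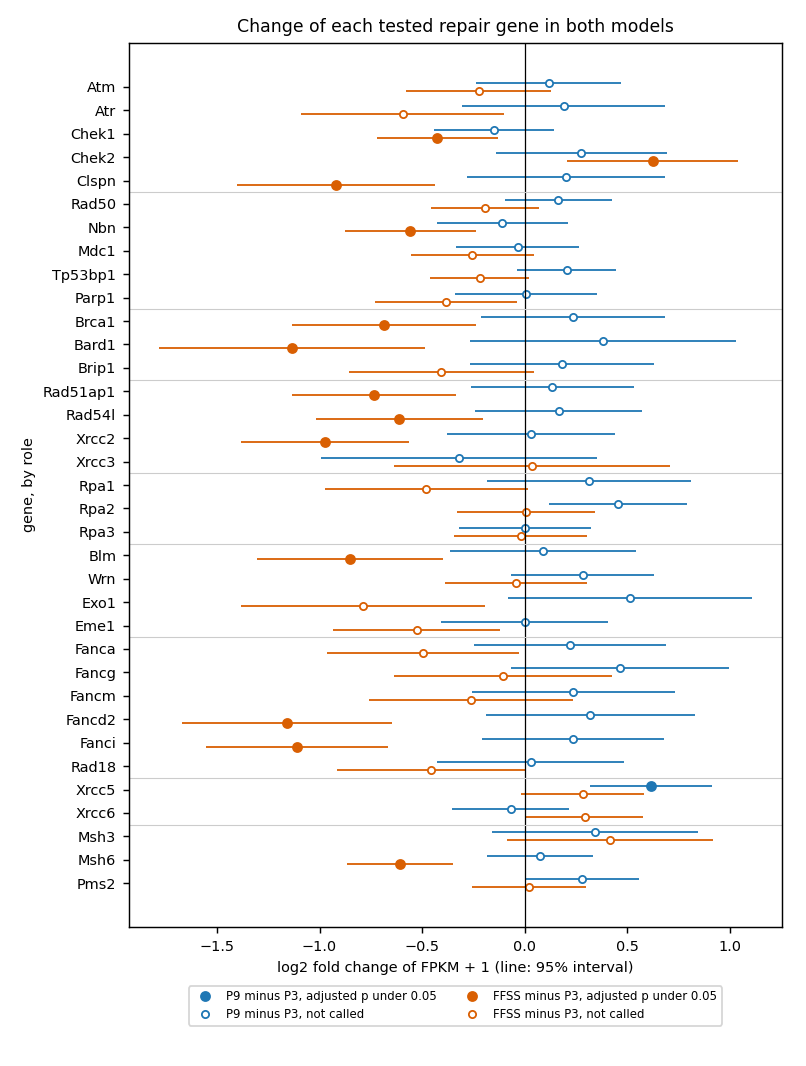
Log2 fold change of FPKM + 1 (horizontal, points with 95% intervals) of the 35 tested repair genes, grouped by role, in P9 minus P3 (blue) and FFSS minus P3 (orange). Filled points passed an adjusted p of 0.05: 13 after shear stress, 12 of them negative, and 1 at passage 9.

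Among the checkpoint genes, Clspn and Chek1 fell and Chek2 rose after shear stress, while the upstream kinases Atm and Atr were not called. Claspin, the product of Clspn (chromosome 5, 144581427 to 144616335 on Rnor_6.0, plus strand), bridges ATR to CHK1 at stalled forks. Its level was 1.39, 1.75 and 1.65 FPKM in P3, 1.61, 2.40 and 1.98 in P9, and 0.781, 0.0815 and 0.333 in FFSS. All FFSS libraries lay below all others, and replicate 2 rested on 6 fragments. The log2 fold change after shear stress was -0.92 (-1.40 to -0.44, adjusted p = 0.0175 in limma) and -2.46 with voom (adjusted p = 0.0151). The call was lost without any one P3 library or FFSS replicate 3, with adjusted p up to 0.0657. Chek1 (chromosome 8, 39181163 to 39243882, minus strand), the effector kinase of ATR, had the highest level of the repair genes. Its row held 4225 to 6784 fragments in a library, where the median over the repair genes was 196.5. Whether all of these fragments came from Chek1 was not tested. The gene measured 52.0, 53.7 and 54.3 FPKM in P3, 52.7, 47.9 and 43.7 in P9, and 46.8, 34.2 and 38.2 in the FFSS libraries. The FFSS libraries lay below P3 but overlapped P9. Its change was -0.43 (-0.72 to -0.13, adjusted p = 0.0459 in limma), and 12 of the 16 settings ended the call, with adjusted p up to 0.133 without FFSS replicate 3. Chek2 (chromosome 12, 51845796 to 51877624, minus strand), the effector kinase of ATM, went the other way. Its level was 1.45, 1.63 and 2.18 FPKM in P3, 2.61, 2.17 and 2.17 in P9, and 2.64, 4.29 and 2.89 in FFSS. Every FFSS library exceeded every P3 library, by a log2 fold change of 0.62 (0.21 to 1.04, adjusted p = 0.0416 in limma), and this call too ended in 12 of 16 settings, with adjusted p up to 0.146 without P3 replicate 1. Atr, the kinase activated by single-stranded DNA, measured 2.33, 2.85 and 2.45 FPKM in P3, 3.95, 2.43 and 2.87 in P9, and 2.08, 0.854 and 1.25 in FFSS. Its fold change after shear stress was -0.60 (-1.09 to -0.10, adjusted p = 0.0825 in limma), and voom gave -0.95 with an adjusted p of 0.0493. Atm, the kinase activated by double-strand breaks, had group means of 3.05 to 3.41 FPKM in the passage groups and 2.49 in FFSS.

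Of the genes that sense breaks and organise the surrounding chromatin, Nbn fell after shear stress and the other 4 did not pass the test. Nbn (chromosome 5, 29622281 to 29656864, plus strand) encodes the nibrin subunit of the complex with MRE11 and RAD50 that binds broken ends and activates ATM. It measured 15.5, 15.2 and 14.2 FPKM in P3, 15.0, 14.1 and 12.4 in P9, and 12.1, 8.51 and 9.17 in the FFSS libraries. The FFSS libraries were the lowest of the 9, with a change of -0.56 (-0.88 to -0.24, adjusted p = 0.0239 in limma), which was lost without any one P3 library or FFSS replicate 2 or 3, with adjusted p up to 0.0898. Its partner Rad50 measured 6.68, 7.25 and 6.60 FPKM in P3, 8.36, 7.39 and 7.62 in P9, and 6.40, 5.25 and 5.96 in FFSS. Groups of Rad50 did not overlap, but against P3 its change was -0.19 after shear stress (adjusted p = 0.253 in limma) and 0.16 at passage 9 (adjusted p = 0.456). Tp53bp1, which restrains the resection of broken ends, measured 7.15, 7.65 and 7.86 FPKM in P3, 9.23, 8.69 and 8.65 in P9, and 5.86, 6.76 and 6.43 in FFSS. Its libraries were ordered in the same way without overlap, with changes from P3 of -0.22 (adjusted p = 0.166 in limma) and 0.20 (adjusted p = 0.299). Parp1, which marks strand breaks with poly(ADP-ribose), measured 15.9, 14.0 and 15.8 FPKM in P3, 14.2, 16.4 and 15.4 in P9, and 14.4, 9.29 and 11.2 in FFSS. Its groups overlapped, and its change of -0.38 after shear stress missed the threshold (adjusted p = 0.102 in limma). Without FFSS replicate 1 it was -0.54, with an adjusted p of 0.00924. Mdc1, the scaffold that reads phosphorylated histone H2AX, had group means of 5.02 FPKM in P3, 4.88 in P9 and 4.06 in FFSS.

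Both subunits of the BRCA1-BARD1 ubiquitin ligase, which promotes resection, were lower after shear stress. Bard1 (chromosome 9, 78294834 to 78369031, minus strand), whose promoter with the paired CHR words is printed above, measured 4.15, 3.89 and 3.59 FPKM in P3, 5.39, 6.05 and 4.69 in P9, and 2.76, 0.732 and 0.679 in the FFSS libraries. The groups did not overlap, with P9 highest and FFSS lowest, and FFSS replicate 1 lay between P3 and the other shear libraries. Its change after shear stress was -1.14 (-1.78 to -0.49, adjusted p = 0.0237 in limma), and -1.79 with voom. Brca1 (chromosome 10, 89394803 to 89454681, minus strand) measured 1.82, 2.13 and 1.37 FPKM in P3, 2.61, 1.95 and 2.21 in P9, and 1.14, 0.433 and 0.647 in the FFSS libraries. The FFSS libraries were again below all others. The change was -0.68 (-1.13 to -0.24, adjusted p = 0.0387 in limma) and -1.34 with voom (adjusted p = 0.0197). Neither call held without any one P3 library or without FFSS replicate 2 or 3, with adjusted p up to 0.0832 for Bard1 and 0.131 for Brca1, and that of Brca1 was also lost without P9 replicate 2 or 3. With no filter on low genes both missed the threshold, at adjusted p of 0.0527 and 0.0658. Brip1, a helicase that binds BRCA1, had means of 1.02, 1.31 and 0.544 FPKM in P3, P9 and FFSS, and a change of -0.41 after shear stress (adjusted p = 0.169 in limma). Palb2 and Brca2, which act together on the resected strand, were below the filter. Brca2 means were 0.729 ± 0.0816 FPKM in P3, 0.782 ± 0.0512 in P9 and 0.496 ± 0.0750 in FFSS, and those of Palb2 were 0.861 ± 0.0319, 1.12 ± 0.216 and 0.767 ± 0.108 (SD, n = 3). With no filter the change of Brca2 after shear stress was -0.21 (adjusted p = 0.189 in limma) and that of Palb2 -0.08 (adjusted p = 0.724).

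Of the 5 genes of the strand exchange step, Xrcc2, Rad51ap1 and Rad54l fell after shear stress. XRCC2 helps to assemble the protein filament that carries out strand exchange (gene on chromosome 4, 5841998 to 5860527, plus strand). It measured 2.90, 2.30 and 3.39 FPKM in P3, 2.74, 3.12 and 2.91 in P9, and 1.40, 0.680 and 0.857 in FFSS. P3 and P9 overlapped, while all FFSS libraries were lower. The change was -0.97 (-1.38 to -0.56, adjusted p = 0.00799 in limma) and kept its call in every setting fixed with the design, with adjusted p at most 0.0386; with voom it was -1.59. Rad51ap1 (chromosome 4, 159469804 to 159482869, minus strand), which stimulates the joining of DNA strands, measured 4.38, 4.11 and 4.18 FPKM in P3, 3.56, 4.97 and 5.91 in P9, and 2.60, 1.84 and 2.01 in the FFSS libraries. The shear libraries were the lowest 3, with a change of -0.74 (-1.14 to -0.34, adjusted p = 0.0198 in limma). Rad54l (chromosome 5, 134948512 to 134978125, minus strand), the motor protein that remodels the joint, measured 1.77, 1.92 and 1.79 FPKM in P3, 2.44, 1.67 and 2.48 in P9, and 1.0, 0.541 and 1.06 in FFSS. Again no shear library reached the other groups, and the change was -0.61 (-1.02 to -0.20, adjusted p = 0.0409 in limma), or -1.12 with voom. Both calls were lost without any one P3 library and without FFSS replicate 2 or 3, with adjusted p up to 0.0751 for Rad51ap1 and 0.119 for Rad54l, whose call was also lost without P9 replicate 1 or 3 and with no filter (adjusted p = 0.0681 in limma). Rad54b, a relative of Rad54l, was under the filter, with means of 0.535, 0.870 and 0.294 FPKM in P3, P9 and FFSS, and it shares 4645 bases on the same strand with Fsbp. Xrcc3, which also acts in strand exchange, ranged from 3.35 to 7.66 FPKM in P9 and from 5.61 to 11.3 in FFSS. It overlaps Klc1 on the opposite strand over 2167 bases, and since the strand setting of the counting was not given, reads of Xrcc3 and of the more abundant Klc1 (56.9 FPKM) cannot be told apart there.

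Replication protein A, the trimer that coats single-stranded DNA, had no subunit called in FFSS minus P3: limma called 0 of 3, with 0 at an unadjusted p under 0.05 and 0 with voom. With 3 genes this is not told apart from the 10.4% lower and 11.4% higher of all tested genes. Rpa1, the large subunit, measured 6.68, 6.40 and 5.84 FPKM in P3, 8.06, 8.18 and 7.99 in P9, and 6.59, 2.84 and 3.93 in FFSS. FFSS replicate 1 lay within P3 and the other shear libraries lay below it. The change was -0.48 (-0.98 to 0.02, adjusted p = 0.145 in limma), and without FFSS replicate 1 it was -0.75 with an adjusted p of 0.00340. Rpa2, the middle subunit, measured 7.0, 8.46 and 8.54 FPKM in P3, 12.6, 11.2 and 10.2 in P9, and 9.69, 7.10 and 7.41 in FFSS. Its P9 libraries were the highest 3 of the 9, and the change at passage 9 was 0.45 (0.12 to 0.79, adjusted p = 0.0968 in limma). Rpa3, the small subunit, measured 24.3, 21.7 and 23.5 FPKM in P3, 19.5, 28.2 and 22.7 in P9, and 21.7, 21.6 and 25.4 in FFSS. Its groups overlapped, with a change after shear stress of -0.02 (-0.34 to 0.30, adjusted p = 0.932 in limma).

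Among the helicases and nucleases that process recombination intermediates, Blm fell after shear stress. BLM dissolves double Holliday junctions (gene on chromosome 1, 142246790 to 142332588, minus strand). It measured 1.52, 1.62 and 1.68 FPKM in P3, 1.94, 1.66 and 1.74 in P9, and 0.868, 0.123 and 0.437 in FFSS. FFSS replicate 2 rested on 8 fragments, against 100 to 111 in the P3 libraries. The change was -0.85 (-1.31 to -0.40, adjusted p = 0.0185 in limma) and -2.12 with voom (adjusted p = 0.0150). Leaving out any one P3 library or FFSS replicate 3 ended this call, with adjusted p up to 0.0621. Exo1, the nuclease that extends resection and also excises mismatches, measured 1.66, 1.27 and 1.54 FPKM in P3, 3.59, 1.88 and 2.37 in P9, and 1.06, 0.137 and 0.268 in FFSS. Its groups did not overlap, P9 being highest, yet its change missed the threshold both after shear stress (-0.79, -1.38 to -0.19, adjusted p = 0.0618 in limma) and at passage 9 (0.51, -0.08 to 1.11, adjusted p = 0.291). With voom the change after shear stress was -2.06 and passed (adjusted p = 0.0399), as it did without FFSS replicate 1 (-1.05, adjusted p = 0.00721). Eme1, a subunit of a structure-specific nuclease, had means of 1.44, 1.45 and 0.693 FPKM in P3, P9 and FFSS, with a change after shear stress of -0.53 (adjusted p = 0.0669 in limma, 0.0459 with voom). Wrn, the Werner syndrome helicase, had means of 4.28, 5.44 and 4.12 FPKM and was not called.

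Of the 6 Fanconi anaemia and lesion bypass genes, Fancd2 and Fanci, which encode the pair of proteins that is ubiquitinated and clamps onto crosslinked DNA, fell after shear stress. Fancd2 (chromosome 4, 145489869 to 145551479, plus strand) measured 4.14, 4.64 and 4.58 FPKM in P3, 6.15, 6.13 and 5.16 in P9, and 2.55, 0.834 and 1.23 in FFSS. Fanci (chromosome 1, 141120166 to 141172483, plus strand) measured 6.83, 7.59 and 7.06 FPKM in P3, 10.3, 8.49 and 7.25 in P9, and 4.03, 2.44 and 2.12 in FFSS. For both genes no FFSS library reached the other groups, and replicate 1 was the highest of the shear libraries. The changes were -1.16 for Fancd2 (-1.67 to -0.65, adjusted p = 0.00924 in limma) and -1.11 for Fanci (-1.55 to -0.67, adjusted p = 0.00659). Both calls held in every setting fixed with the design, with adjusted p at most 0.0393 and 0.0323. Fanca and Fancg belong to the core complex that ubiquitinates this pair. Fanca measured 1.95, 1.48 and 1.95 FPKM in P3, 2.75, 1.79 and 2.26 in P9, and 1.05, 0.548 and 1.42 in FFSS, a change of -0.50 (adjusted p = 0.114 in limma). Fancg measured 2.33, 1.82 and 1.45 FPKM in P3, 3.01, 3.33 and 2.48 in P9, and 1.18, 2.75 and 1.26 in FFSS. Its P9 libraries exceeded all P3 libraries, with a change of 0.46 that missed the threshold (-0.07 to 1.0, adjusted p = 0.283 in limma). Fancm, the translocase that recruits the core complex, and Rad18, the ligase that starts lesion bypass, had FFSS means of 2.89 and 3.91 FPKM against 3.56 and 5.74 in P3, with adjusted p of 0.419 and 0.133 in limma.

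Neither gene of the Ku heterodimer, which starts end joining, was called lower in either model. Xrcc5 (chromosome 9, 79659251 to 79748078, plus strand), the larger subunit, measured 10.2, 10.3 and 10.6 FPKM in P3, 19.1, 15.9 and 14.5 in P9, and 14.5, 11.4 and 12.6 in FFSS. Every P9 and every FFSS library exceeded every P3 library. It rose at passage 9 by a log2 fold change of 0.61 (0.32 to 0.91, adjusted p = 0.0195 in limma). The call at passage 9 was lost without any one P3 library and without P9 replicate 1 or 2, with adjusted p up to 0.0863. After shear stress its change was 0.28 (-0.02 to 0.58, adjusted p = 0.153 in limma). Xrcc6, the smaller subunit, ranged from 10.4 to 11.2 FPKM in P3 and from 9.68 to 10.5 in P9, but from 11.4 to 15.6 in FFSS. Its change after shear stress was 0.29 (0.01 to 0.58, adjusted p = 0.126 in limma), and without FFSS replicate 1 it was 0.40 with an adjusted p of 0.0187. For the pair after shear stress limma called 0 of 2, with 1 at an unadjusted p under 0.05 and 0 with voom. Of all tested genes 10.4% fell and 11.4% rose after shear stress, and 4.44% fell at passage 9. With 2 genes the counts of the pair are not told apart from these shares.

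Of the 3 mismatch repair members, Msh6, a subunit of the complex that recognises single mispairs, fell after shear stress. Msh6 (chromosome 6, 11644578 to 11662499, plus strand) measured 7.42, 7.12 and 7.32 FPKM in P3, 8.0, 7.46 and 7.72 in P9, and 4.39, 5.02 and 3.95 in the FFSS libraries. The shear libraries were close to each other and below all others, with replicate 1 between the other two. Its change was -0.61 (-0.87 to -0.35, adjusted p = 0.00829 in limma), and the call held in every setting fixed with the design, with adjusted p at most 0.0442. It shares 144 bases with Fbxo11 on the opposite strand (6.58 FPKM). Msh3, which takes the place of MSH6 in the complex for longer loops, had means of 1.40 ± 0.426 FPKM in P3, 2.07 ± 0.726 in P9 and 2.20 ± 0.485 in FFSS (SD, n = 3), with a change of 0.41 (-0.09 to 0.92, adjusted p = 0.206 in limma). Pms2, the endonuclease subunit that nicks the new strand, had means of 5.40, 6.77 and 5.48 FPKM and changes of 0.02 after shear stress (adjusted p = 0.917 in limma) and 0.28 at passage 9 (adjusted p = 0.214).

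**Figure D4:**
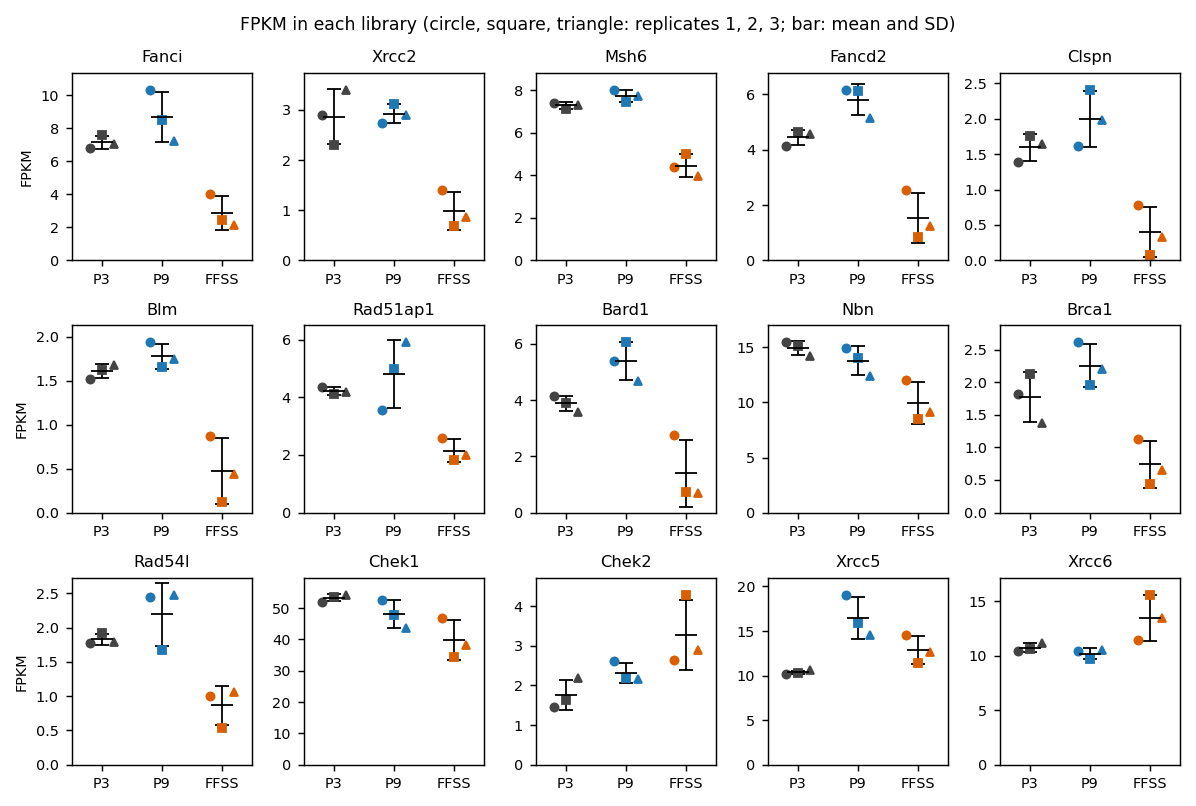
FPKM in each library (circles, squares and triangles for replicates 1, 2 and 3) with the mean and SD of each group for the 13 repair genes called after shear stress and both Ku genes. In the 12 genes that fell, every FFSS point is below every P3 point, and in 10 of them FFSS replicate 1 is the highest of the shear libraries.

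At passage 9 no repair gene was called lower than at passage 3. Xrcc5 was the only one of 35 called higher, next to 5.39% of all tested genes, and 0 were called lower, next to 4.44%. With 35 genes these counts are not told apart from those shares and are no result about the repair genes. For lower genes the count at an unadjusted p under 0.05 was 0 in limma and voom called 0. The median log2 fold change of the 35 was 0.19, against -0.0026 for all tested genes, and 29 of the 35 were positive. Every P9 library lay above every P3 library for 11 of them (Rad50, Tp53bp1, Bard1, Rpa1, Rpa2, Exo1, Fancg, Fancd2, Xrcc5, Msh6 and Pms2), where 20.9% of all tested genes did so, and below for 0, where 19.1% did. The count of higher genes was 0 without any one P3 library or without P9 replicate 1 or 2, and 2 without FFSS replicate 1.

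The direct comparison of the models, P9 minus FFSS, tests whether their changes from the shared P3 control differ. It called 18 of the 35 repair genes higher in P9, next to 16.1% of all tested genes, and 0 lower, next to 15.3%; at an unadjusted p under 0.05 limma had 1 lower and voom called 0. The differences were largest for Bard1 (1.52, 0.87 to 2.17, adjusted p = 0.00472 in limma), Fancd2 (1.48, 0.97 to 1.99, adjusted p = 0.00172), Fanci (1.35, 0.90 to 1.79, adjusted p = 0.00138) and Exo1 (1.30, 0.71 to 1.90, adjusted p = 0.00639). Clspn, Xrcc2, Blm, Brca1, Rad51ap1, Rad54l and Msh6 followed with differences of 1.12, 1.0, 0.94, 0.92, 0.87, 0.78 and 0.68, and adjusted p from 0.00273 to 0.0118 in limma. These 11 differences held in all 16 settings. The remaining 7 calls were Rpa1 (0.79), Atr (0.78), Fanca (0.72), Rpa2 (0.45), Nbn (0.45), Tp53bp1 (0.42) and Rad50 (0.36), with adjusted p from 0.0166 to 0.0462 in limma. Of these, Tp53bp1 kept its call without each library in turn but lost it with only the 6 libraries compared (adjusted p = 0.0720 in limma). The other 6 lost it without at least 1 library, among them FFSS replicate 2, and reached adjusted p of 0.0774 (Rpa1), 0.0851 (Atr), 0.0940 (Fanca), 0.137 (Rpa2), 0.122 (Nbn) and 0.108 (Rad50). Chek1, which fell after shear stress, was not called between the models (0.28, adjusted p = 0.135 in limma).

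The rest of the recombination pathway was described from a list of genes not among the 38. Of 36 tested genes of homologous recombination, 6 (16.7%) fell after shear stress and 0 rose (1 at an unadjusted p under 0.05 in limma, 0 with voom), next to the 10.4% lower and 11.4% higher over all tested genes. The count of lower genes was 2 or 3 without a P3 library or FFSS replicate 3, 10 without FFSS replicate 1 and 4 without replicate 2 of FFSS or of P9. Among them were Gen1, a Holliday junction resolvase, at -1.01 (adjusted p = 0.00703 in limma), Slx4, a nuclease scaffold, at -0.57 (adjusted p = 0.0157), Rif1, which works with 53BP1, at -0.81 (adjusted p = 0.0162), and Mre11a and H2afx. Of 14 further Fanconi anaemia genes 3 fell (21.4%). This count was 5 without FFSS replicate 1, and 2 without P3 replicate 1 or 3 or FFSS replicate 3. They were Usp1, the enzyme that removes ubiquitin from FANCD2 and FANCI, Ube2t, the enzyme that carries the ubiquitin to them, and Slx4. Slx4 and Rad51c are also in the recombination list, so the call of Slx4 is counted in both lists. Ube2t measured 13.7, 14.2 and 14.0 FPKM in P3, 19.5, 16.1 and 16.7 in P9, and 7.61, 1.23 and 1.53 in FFSS. FFSS replicate 1 again lay between P3 and the other two shear libraries. The change was -2.03 (-3.01 to -1.06, adjusted p = 0.0125 in limma). Of 7 further mismatch repair genes 1 fell (14.3%), Pms1 at -0.59 (adjusted p = 0.0127 in limma). That count was 4 without FFSS replicate 1 and 0 without P3 replicate 2 or 3. The shares that fell in these lists, 16.7%, 21.4% and 14.3%, are not told apart from the 10.4% of all tested genes. They are no result about the lists.

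Genes of end joining beside Ku included 2 of 11 that rose after shear stress and 0 that fell (0 at an unadjusted p under 0.05 in limma, 0 with voom), and 1 rose without P3 replicate 1 or 2 or FFSS replicate 3. Polm, a polymerase that fills ends before ligation, measured 2.19, 2.52 and 2.29 FPKM in P3, 3.88, 3.74 and 3.87 in P9, and 4.99, 8.65 and 7.40 in the FFSS libraries. The groups did not overlap, and its change after shear stress was 1.24 (0.84 to 1.64, adjusted p = 0.00291 in limma). Lig4, the ligase that seals the ends, measured 6.57, 5.93 and 6.52 FPKM in P3 and 9.57, 11.5 and 11.3 in FFSS, a change of 0.68 (0.34 to 1.02, adjusted p = 0.0141 in limma). Of 13 further checkpoint genes 1 rose, Atrip, the partner of ATR, at 0.66 (adjusted p = 0.0234 in limma), and 0 did so without P3 replicate 1 or 3 or FFSS replicate 2 or 3. With so few genes, the shares of 18.2% and 7.69% that rose in the end joining and checkpoint lists are not told apart from the 11.4% of all tested genes and are no result about these lists. At passage 9, limma called 1 of the 36 further recombination genes, Recql, a helicase, higher at 0.68 (adjusted p = 0.00432), and 0 genes of the other 4 lists, which together had 7 higher and 2 lower at an unadjusted p under 0.05 and 1 higher with voom. Without FFSS replicate 1 limma called 2 higher and 1 lower of the end joining list and 2 higher of the checkpoint list.

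**Figure D5:**
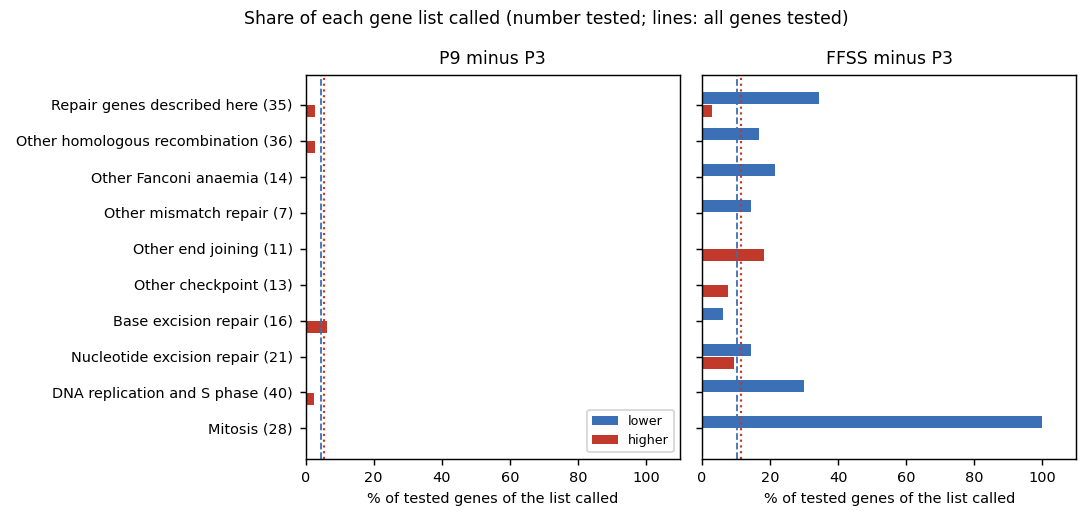
Share of the tested genes of each list called lower (blue) or higher (red) in P9 minus P3 (left) and FFSS minus P3 (right), with the number tested in brackets and the shares over all tested genes as lines. After shear stress 28 of 28 mitotic genes, 12 of 40 replication genes and 12 of 35 repair genes were lower (28, 31 and 17 without FFSS replicate 1), and the end joining list held 2 higher genes. Bars and lines come from all 9 libraries, so the counts without FFSS replicate 1 have no line beside them.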

How the data were processed

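Poly(A) RNA of 9 libraries was analysed, 3 each of P3, P9 and FFSS, grouped by the labels. The authors deposited FPKM values; HISAT2 2.0.5, featureCounts 1.5.0-p3 and Rnor_6.0 are named per the submitters' processing notes, and the strand setting is not given in the sources used here. Value times gene length was a whole multiple of 1 step per library for 100% of values (tolerance 0.01), which gave fragment counts. At 1 kilobase 1 fragment is 0.0619 to 0.0733 FPKM; a count of 0 allows 3 fragments, or 0.186 to 0.220 FPKM, for counting error only. Genes reaching 1 FPKM in 3 or more libraries were fitted as log2(FPKM + 1) in limma 3.58.1 (R 4.3.3) with a trend, over all 9 libraries, with 6 residual and 2.93 prior degrees of freedom. The pseudocount of 1 is part of every fold change. Adjusted p-values are Benjamini-Hochberg over 13059 genes.

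The members and lists were chosen with earlier results of these data known. Values in every library are given for members called in any contrast, for the 4 largest changes and for the 4 most abundant; of the other lists, up to 4 called genes by smallest adjusted p. Of the listed genes, 10 had no row. Some genes of the other lists are not reported here by name, though they count in the totals. The fit was tested on simulated data. The first simulated table held more false calls than the limit set for it. The limit was then applied to the pooled calls of 12 tables that include the first. The pooled share of false calls, 6.78%, still lay above the nominal one. So did the share in 9 of the 12 tables, the highest at 10.5%. Calls near the threshold should be read with that in mind. Alternatives were another pseudocount, no filter, library totals, voom, a replicate block, the 6 libraries of each contrast, and leaving out each library. Promoter windows were searched in Python 3.11.15 with pandas 2.3.3 and NumPy 2.4.6, and figures drawn with matplotlib 3.10.9.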

Additional observations from a re-analysis of the deposited data

How the results depend on the processing

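Counts of repair genes called were recomputed under 16 settings fixed with the design and 2 chosen after seeing the data. Leaving out each library in turn gave 0 to 2 higher and 0 lower genes in P9 minus P3, 0 to 2 higher and 4 to 17 lower in FFSS minus P3, and 12 to 24 higher and 0 to 1 lower in P9 minus FFSS. With only the 6 libraries of a contrast, 3 were higher in P9 minus P3, 0 higher and 8 lower in FFSS minus P3, and 11 higher in P9 minus FFSS. The 1 higher gene in FFSS minus P3, Chek2, became 0 with no filter, with a pseudocount of 0.1 and no filter, with the replicate block, and with voom and no filter. No filter gave 8 lower genes there. With voom and without FFSS replicate 1 (chosen after seeing the data) the counts were 3 higher in P9 minus P3, 3 higher and 18 lower in FFSS minus P3, and 24 higher and 1 lower in P9 minus FFSS. The cause of these shifts was not tested. Some settings also held fewer libraries or more genes.

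The replicate numbers are shared between groups, but same-numbered libraries did not deviate together (correlations of -0.0408 to 0.0331). Differently numbered libraries gave -0.0653 to 0.0608. With 3 libraries a group this check cannot settle whether same-numbered libraries share an animal or dish. With the replicate block 10 genes were lower in FFSS minus P3, 1 higher in P9 minus P3 and 16 higher in P9 minus FFSS. Of 105 fold changes, 52 passed in at least 1 setting and 0 of these changed sign. The other 53 passed in none, and 15 of them changed sign in some setting; they were left out of the table of settings after this was seen. Depth limits genes such as Clspn, Blm and Exo1, with 5 to 8 fragments in FFSS replicate 2.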

Other observations

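Excision repair, which removes damaged bases without a sister template, was described from lists of genes outside the 38. Of 16 tested base excision repair genes 1 fell after shear stress, Fen1, the flap endonuclease that also trims lagging strand fragments, from 7.64, 8.28 and 8.27 FPKM in P3 to 6.65, 5.25 and 5.82 in FFSS (log2 fold change -0.40, adjusted p = 0.0450 in limma). That is 6.25% of the list, next to 10.4% of all tested genes. At passage 9, 1 rose, Nthl1, a glycosylase for oxidised pyrimidines, from 7.39, 6.57 and 7.62 FPKM in P3 to 10.05, 10.9 and 9.95 (0.47, adjusted p = 0.0426 in limma). Both calls were lost with voom, which called 0 of the list lower after shear stress and 0 higher at passage 9, and both counts were 0 without any one P3 library. The count that fell was also 0 without replicate 2 or 3 of P9 or of FFSS and was 4 without FFSS replicate 1, and the count that rose was 0 without any one P9 library.

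Of 21 tested nucleotide excision repair genes 2 rose (9.52%) and 3 fell (14.3%) after shear stress, shares near the 11.4% and 10.4% of all tested genes. The count that fell was 0 without any one P3 library or FFSS replicate 3, 5 without FFSS replicate 1 and 1 without replicate 2 of FFSS or of P9, and 1 rose without any one P3 library. Xpc, which recognises distorted DNA, rose from 7.61, 6.99 and 7.05 FPKM to 9.79, 11.6 and 10.2 (0.48, adjusted p = 0.0159 in limma), and its partner Cetn2 from 12.3, 11.1 and 12.4 to 16.7, 19.1 and 18.8 (0.57, adjusted p = 0.0105). Ccnh fell by 0.53 (adjusted p = 0.0216 in limma) and Ddb1, a subunit of a damage-binding ubiquitin ligase, by 0.69 (adjusted p = 0.0344) on the log2 scale. At passage 9 limma called 0 of the 21, with 1 higher and 2 lower at an unadjusted p under 0.05 and 0 with voom.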
